A study of Homo sapiens with 8 samples.

Results

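The genes described here encode collagen chains, laminin chains, the glycoproteins and proteoglycans that sit beside them in basement membranes, and the enzymes and chaperones that modify and fold collagen. A locus of the expression table was taken where its RefSeq accessions mapped to a single symbol, either a collagen chain (COL, a number, A and a number), a symbol that starts with LAMA, LAMB or LAMC and a digit, or 1 of 16 listed genes (AGRN, HSPG2, NID1, NID2, CILP, VWA1, FKBP10, SERPINH1, PLOD1, PLOD2, PLOD3, P4HA2, P4HB, LOX, LOXL1 and LOXL2). This gave 76 of 27757 loci, with 70 symbols, and 31 of the 76 were expressed highly enough to be tested. Libraries were made from OVISE, a cell line of human origin derived from ovarian clear cell carcinoma, and the series asks how the tyrosine kinase SYK shapes the transcriptome that depends on the EGF receptor. The 4 groups, of 2 libraries each, were SYK-WT cells without treatment, SYK-WT cells with EGF (epidermal growth factor) at 50 ng/ml for 24 h, SYK-KO cells without treatment and SYK-KO cells with the same EGF exposure. SYK-KO cells had been made with a nickase form of Cas9 and paired guides against exon 2 of SYK, selected with puromycin and grown out from single cells, and the loss of the protein was checked by immunoblot, per the labels. Whether SYK-WT cells passed through the same selection, how many clones stand behind each library, and whether the libraries of a group are separate cultures is not stated in the labels, so each p-value rests on a spread between libraries that may be technical in origin. A difference between SYK-KO and SYK-WT therefore cannot be told apart from a difference between clones.

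Basement membranes are thin sheets that underlie epithelia. Laminins, trimers of an α, a β and a γ chain, form the sheet that touches the cell, type IV collagen forms a second network, and nidogens, perlecan (HSPG2) and agrin (AGRN) link the networks. Collagen chains are hydroxylated on proline and lysine in the endoplasmic reticulum, fold there into triple helices with the help of chaperones such as FKBP10 and SERPINH1, and are crosslinked outside the cell by lysyl oxidases.

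Expression is given as FPKM, fragments per kilobase of transcript relative to the mapped fragments of a library, which is scaled to length, so levels can be compared between genes. Pairs of values are those of replicate 1 and replicate 2. The estimated depth was 22800000 to 26900000 fragments per library. Replicates of SYK-WT differed more than those of the other groups, with a median absolute difference over tested loci of 0.150 on the log2 scale, against 0.0669 to 0.0828. Epithelial and clear cell markers reached 1 FPKM for 9 of 9 genes. Of 10 stromal genes 4 (DCN, LUM, THY1 and COL3A1) were listed at 0 in every library, and ACTA2 alone reached 1 FPKM. None of 5 endothelial and 5 haematopoietic markers reached 1 FPKM.

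Among the 31 tested genes the highest levels were those of basement membrane genes. In untreated SYK-WT cells LAMC1, the γ chain of most laminins, averaged 387 FPKM and lay above 98.4% of tested loci, followed by AGRN with 307, NID2 with 246, COL4A2 with 242 and COL4A1 with 206 FPKM. NID2 and COL4A2 were within each other's range (239 and 252 against 234 and 250 FPKM), so their order is not resolved. P4HB, the disulfide isomerase that is also the β subunit of prolyl hydroxylase, stood at 182 and COL18A1 at 143 FPKM. At the lower end of the tested genes were COL4A3 with 1.502, COL12A1 with 1.12, LAMB4 with 1.08 and LAMC3 with 0.621 FPKM in the same cells.

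Fibrillar collagens were at low levels. Of 10 fibrillar collagen genes COL27A1 alone was tested (3.66 to 4.50 FPKM over the 8 libraries), and COL1A1 did not exceed 0.368 FPKM. The tested share was 7 of 17 basement membrane and network collagens, 2 of 10 fibril-associated collagens, 1 of 3 transmembrane collagens, 7 of 10 laminin chains, 5 of 6 other matrix glycoproteins, 1 of 2 chaperones, 5 of 5 hydroxylases and 1 of 3 lysyl oxidases, and COL26A1 belonged to no group. Among the untested loci were SERPINH1, a chaperone dedicated to collagen (0.114 to 0.364 FPKM), and LOX and LOXL1, so LOXL2 was the tested lysyl oxidase. Of the 39 untested symbols, 3 were listed at 0 in every library (COL6A5, COL11A2 and COL22A1), 32 stayed under 0.5 FPKM and 4 (LAMA2, LAMA4, COL4A5 and NID1) reached 0.5 FPKM in a library. The other untested collagen chains were COL1A2, COL2A1, COL4A6, COL5A1, COL5A2, COL5A3, COL6A3, COL6A6, COL8A1, COL8A2, COL9A1, COL9A3, COL10A1, COL11A1, COL13A1, COL14A1, COL15A1, COL16A1, COL19A1, COL20A1, COL21A1, COL23A1, COL24A1 and COL28A1. LAMA1 was also untested, as were LAMB2P1, LAMA4-AS1 and LAMA5-AS1, which encode no protein chain. LAMB3, LAMA5, COL17A1, COL7A1 and COL3A1 share a locus with a microRNA entry and were not members under the rule. The loci of LAMB3, LAMA5 and COL17A1 are given separately below. Those of COL7A1 (0.157 to 0.391 FPKM) and COL3A1 (0 in every library) were under the limit for testing.

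Sequences before the start sites of genes that changed with EGF were taken from RefSeq on GRCh38.p14, where 25 of the 31 tested genes had an entry. Each is printed 5′ to 3′ on the strand of the gene. The first is the stretch of 250 bases before a start inside LAMA3 (chr18:23872770-23873019, plus strand, 183577 bases into the GENCODE gene), with matches to the AP-1 motif TGANTCA in capitals. The matches begin 125 and 69 bases before the start.
LAMA3: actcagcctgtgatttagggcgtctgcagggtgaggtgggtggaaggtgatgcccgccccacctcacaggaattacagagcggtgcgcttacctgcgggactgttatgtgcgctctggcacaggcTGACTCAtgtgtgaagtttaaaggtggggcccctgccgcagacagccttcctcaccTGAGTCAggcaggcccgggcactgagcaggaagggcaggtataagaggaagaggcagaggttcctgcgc
The next is the stretch of 250 bases before NID2 (chr14:52069060-52069309, minus strand), with the GC box GGGCGG and CCAAT in capitals on either strand, and with 2 GC boxes near the start that overlap by a base.
NID2: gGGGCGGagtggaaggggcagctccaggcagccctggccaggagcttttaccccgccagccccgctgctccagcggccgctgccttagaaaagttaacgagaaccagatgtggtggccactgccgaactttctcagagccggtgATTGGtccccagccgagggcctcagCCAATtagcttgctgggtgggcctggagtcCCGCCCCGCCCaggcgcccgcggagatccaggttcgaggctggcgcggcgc
The last is the whole interval of 126 bases that separates the starts of COL4A1, read to the left, and COL4A2, read to the right (chr13:110307158-110307283, plus strand), shown because both genes fell by similar amounts with EGF. CCAAT and GGGCGG are in capitals.
COL4A1-COL4A2: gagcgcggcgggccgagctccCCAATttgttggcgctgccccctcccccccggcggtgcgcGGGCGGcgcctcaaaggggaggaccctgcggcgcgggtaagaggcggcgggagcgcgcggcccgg
Each motif was searched on both strands in windows of 300 bases, from 250 before to 50 after a start. TGANTCA occurred in 7.71% of 35116 windows and, among the 25 genes with an entry, in LAMA3 alone. GGGCGG occurred in 45.0% of windows and for 19 of the 25 genes, LAMA3 included, where it is left in lower case above. CCAAT occurred in 34.6% of windows and for 8 of the 25. These are matches of letters and were not tested as sites.

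EGF in SYK-WT cells raised LAMA3, the α chain of an epithelial laminin, and lowered other basement membrane genes. Of 31 tested genes 12 passed the threshold, an adjusted p under 0.05 in limma, where 26.7% of all tested loci passed. Of these 3 rose, against 14.7% of all loci, among them LAMA3 and PLOD3, and the 9 that fell, against 12.1% of all loci, were CILP, LAMB1, NID2, COL26A1, COL4A4, COL18A1, COL4A1, COL4A2 and LAMB2. The median log2 fold change was -0.24 over the 31 genes and 0.0077 over all tested loci. Values of treated and untreated libraries did not overlap for 26 of the 31, where the share over all loci was 63%. Fold changes are differences in log2(FPKM + 1), which understate the change of genes near 1 FPKM. In bulk libraries, fewer cells of a type and less RNA per cell cannot be told apart. Intervals are given per gene and are not adjusted for the number of genes. The stromal list summed to 7.59 to 10.5 FPKM without and 5.14 to 5.75 FPKM with EGF, with DCN, LUM, THY1 and COL3A1 at 0, and the mesothelial list to 16.0 to 23.9 and 15.4 to 15.9 FPKM. Within the mesothelial list UPK3B fell from 9.82 and 16.0 to 5.06 and 5.30 FPKM with EGF. CALB2 rose from 0.342 and 0.143 to 1.98 and 1.81 FPKM and MSLN from 5.68 and 7.63 to 8.63 and 8.27 FPKM, while WT1 overlapped. The part of the mesothelial list in these results was not tested. Leaving out SYK-WT replicate 1 gave a count of 19, and leaving out SYK-WT EGF replicate 1 gave 7.

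LAMA3 encodes an α chain that joins with LAMB3 in laminin that anchors epithelial cells at hemidesmosomes. LAMA3 (chromosome 18, 21269407 to 21535029, hg19) held 50.1 and 74.8 FPKM without and 163 and 153 FPKM with EGF. The groups did not overlap, and the log2 fold change was 1.35 ± 0.17 (SE, 2 libraries a group; limma adjusted p = 0.0016). The locus that holds LAMB3 and a microRNA entry rose as well, from 189 and 229 to 448 and 475 FPKM, with a log2 difference of 1.15 ± 0.10 (limma adjusted p = 0.000359).

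LAMB1, LAMB2, LAMB4, LAMC1 and LAMC3 did not pass as higher with EGF. LAMB1, the β chain that pairs with LAMC1, held 85.8 and 72.7 FPKM without and 37.1 and 42.8 FPKM with EGF. It fell by 0.97 ± 0.10 on the log2 scale (limma adjusted p = 0.000792), with no overlap of the groups. LAMC1 was at 364 and 409 FPKM without and 322 and 333 FPKM with EGF, a difference of -0.24 that did not pass (95% interval -0.48 to 0.0012; limma adjusted p = 0.126). LAMB2, the β chain of neuromuscular and kidney basement membranes, held 27.0 and 29.6 FPKM without and 21.5 and 23.8 FPKM with EGF, and fell by 0.31 ± 0.084 (limma adjusted p = 0.0311). That call was lost under 8 of the alternatives, and LAMB2 has a near copy, LAMB2P1, with which reads could be split. The locus of LAMA5, the α chain that partners LAMB1 and LAMC1, fell from 116 and 123 to 82.2 and 85.5 FPKM (log2 fold change -0.51 ± 0.060, limma adjusted p = 0.00113).

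**Figure D1:**
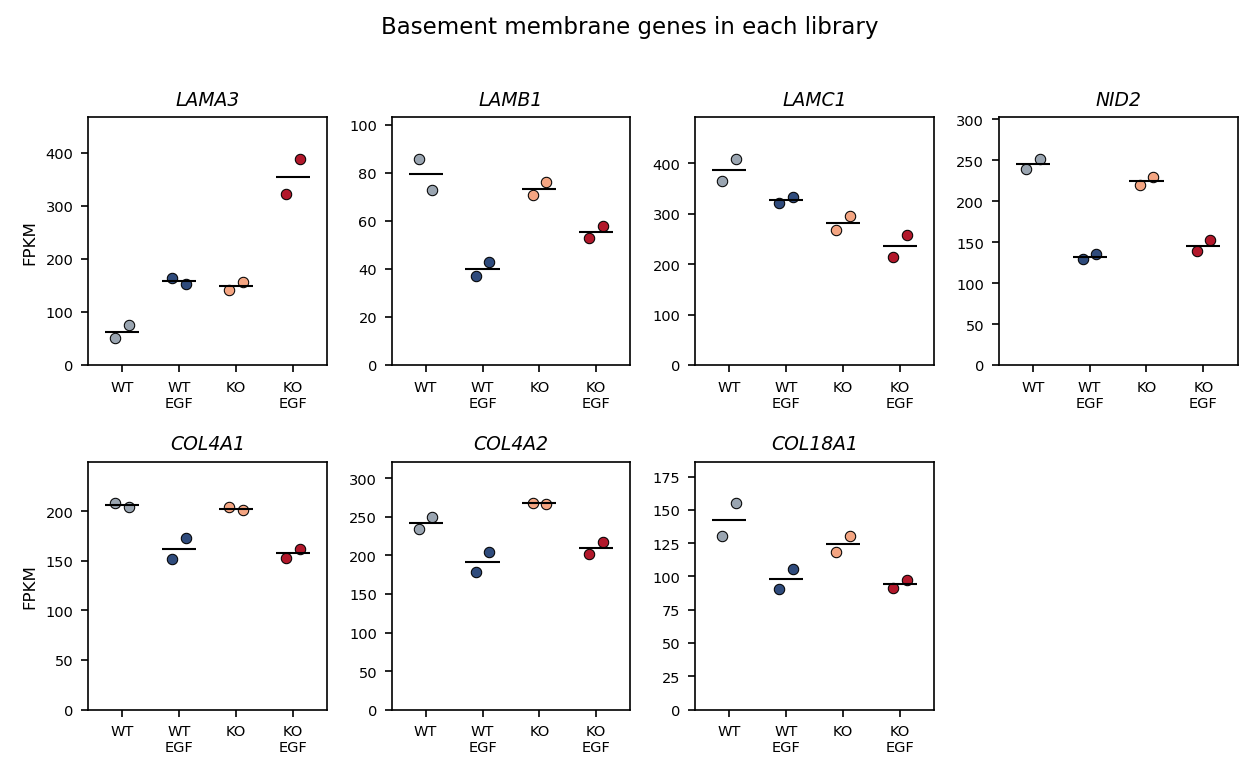
FPKM of 7 basement membrane genes in each library, with 1 panel per gene and its own axis from 0; points are libraries, horizontal lines the means of the 2 libraries of a group (WT, SYK-WT; KO, SYK-KO; EGF, treated). LAMA3 is higher with EGF in cells of either genotype (from 50.1 and 74.8 to 163 and 153 FPKM in SYK-WT), whereas NID2, LAMB1, COL4A1 and COL4A2 are lower.

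The genes that complete the basement membrane fell where they passed. NID2, a nidogen that bridges laminin and type IV collagen, stood at 239 and 252 FPKM without and 129 and 135 FPKM with EGF. It fell by 0.89 ± 0.070 on the log2 scale (limma adjusted p = 0.000237), and the groups lay well apart. COL4A1 and COL4A2, the chains of the common type IV network, lie head to head with 109 bases between them (hg19). COL4A1 held 208 and 204 FPKM without and 152 and 173 FPKM with EGF, and COL4A2 held 234 and 250 without and 178 and 205 FPKM with EGF. Both fell by 0.34, with SE of 0.074 and 0.082 (limma adjusted p = 0.0132 and 0.0206), and treated and untreated libraries did not overlap for either gene. Without SYK-WT EGF replicate 1 these calls were lost (adjusted p = 0.0952 and 0.134), as they were with only the compared groups in the fit (0.0696 and 0.0833).

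COL4A4 belongs to the type IV network of kidney and other specialised membranes. It stood at 5.84 and 5.89 FPKM without and 3.47 and 3.75 FPKM with EGF, and fell by 0.57 ± 0.078 (limma adjusted p = 0.00201). COL18A1, whose product carries heparan sulfate and releases endostatin, held 130 and 155 FPKM without and 90.7 and 105 FPKM with EGF. It fell by 0.53 ± 0.11 (limma adjusted p = 0.00991), and the call was lost without SYK-WT EGF replicate 1 (0.0767). The proteoglycans HSPG2 and AGRN had differences of -0.28 and -0.24 that did not pass (limma adjusted p = 0.0777 and 0.145).

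Among genes outside the basement membrane, CILP, a matrix protein first described in cartilage, was at 5.87 and 8.74 FPKM without and 1.295 and 1.985 FPKM with EGF, and fell by 1.64 ± 0.22 (limma adjusted p = 0.00183). COL26A1, a small collagen, held 7.91 and 11.3 FPKM without and 4.90 and 4.88 FPKM with EGF, and fell by 0.83 ± 0.15 (limma adjusted p = 0.0063). Both genes had treated libraries below every untreated one. Of the 5 hydroxylases PLOD3, which hydroxylates lysine and adds sugars to it, passed, with 12.9 and 14.2 FPKM without and 17.04 and 17.89 FPKM with EGF. It rose by 0.35 ± 0.072 (limma adjusted p = 0.0115), and the call was lost without either SYK-WT EGF library (0.0545 and 0.0878). LOXL2, a lysyl oxidase that crosslinks type IV collagen, was at 16.5 and 27.5 FPKM without and 30.8 and 32.5 FPKM with EGF, a difference of 0.55 that did not pass (limma adjusted p = 0.0707).

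In SYK-KO cells, too, EGF raised LAMA3 and lowered NID2, LAMB1 and type IV collagen genes. Of the 31 genes 8 passed, where 11.8% of all tested loci passed. Of these 2 rose (6.67% of all loci), LAMA3 among them, and the 6 that fell (5.13%) were CILP, NID2, LAMB1, COL4A4, COL4A1 and COL4A2, and all 8 were among the 12 of SYK-WT cells, each in the same direction. The median log2 fold change was -0.12 over the 31 genes, against 0.0014 over all tested loci, and 27 of the 31 had groups that did not overlap, against 63.3% of all loci. The count was 17 without SYK-WT replicate 1 or without SYK-WT replicate 2, and 3 without any of the SYK-KO or SYK-KO EGF libraries. With only the compared groups in the fit it was 16. The stromal list summed to 13.8 to 15.1 FPKM without and 10.6 to 12.5 FPKM with EGF, with DCN, LUM, THY1 and COL3A1 at 0. The mesothelial list summed to 8.08 to 9.62 and 6.46 to 7.43 FPKM, a difference whose part here was not tested. Within it UPK3B fell from 7.15 and 8.97 to 3.12 and 3.07 FPKM. CALB2 rose from 0.586 and 0.287 to 3.62 and 2.96 FPKM, and MSLN and WT1 were also higher with EGF.

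LAMA3 stood at 140 and 156 FPKM in untreated and 321 and 388 FPKM in treated SYK-KO cells. The log2 fold change was 1.25 ± 0.17 (limma adjusted p = 0.00437), and the 2 groups were far apart. The LAMB3 locus rose too, from 324 and 351 to 606 and 661 FPKM (log2 fold change 0.91 ± 0.10, limma adjusted p = 0.0018), whereas the LAMA5 locus missed the threshold (-0.22 ± 0.060, 0.0527).

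NID2 was at 219 and 230 FPKM without and 139 and 153 FPKM with EGF in SYK-KO cells, and fell by 0.62 ± 0.070 (limma adjusted p = 0.00197). COL4A1 fell by 0.36 ± 0.074 and COL4A2 by 0.35 ± 0.082 (limma adjusted p = 0.0195 and 0.0308). Their FPKM moved from 204 and 201 to 153 and 162, and from 268 and 267 to 202 and 217. COL4A2 relative to COL4A1 was 1.12 to 1.23 in SYK-WT and 1.31 to 1.34 in SYK-KO libraries. LAMB1 fell by 0.40 ± 0.10 (70.6 and 76.2 to 52.8 and 57.7 FPKM; limma adjusted p = 0.044), COL4A4 by 0.38 ± 0.078 (2.35 and 2.45 to 1.52 and 1.70 FPKM; 0.0188) and CILP by 0.93 ± 0.22 (2.75 and 3.79 to 0.949 and 1.54 FPKM; 0.0318). The calls of CILP, COL4A1, COL4A2, COL4A4 and LAMB1 were each lost without any single SYK-KO or SYK-KO EGF library. COL18A1 and COL26A1 missed the threshold in these cells, with differences of -0.39 and -0.53 (limma adjusted p = 0.0533 and 0.0562).

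**Figure D2:**
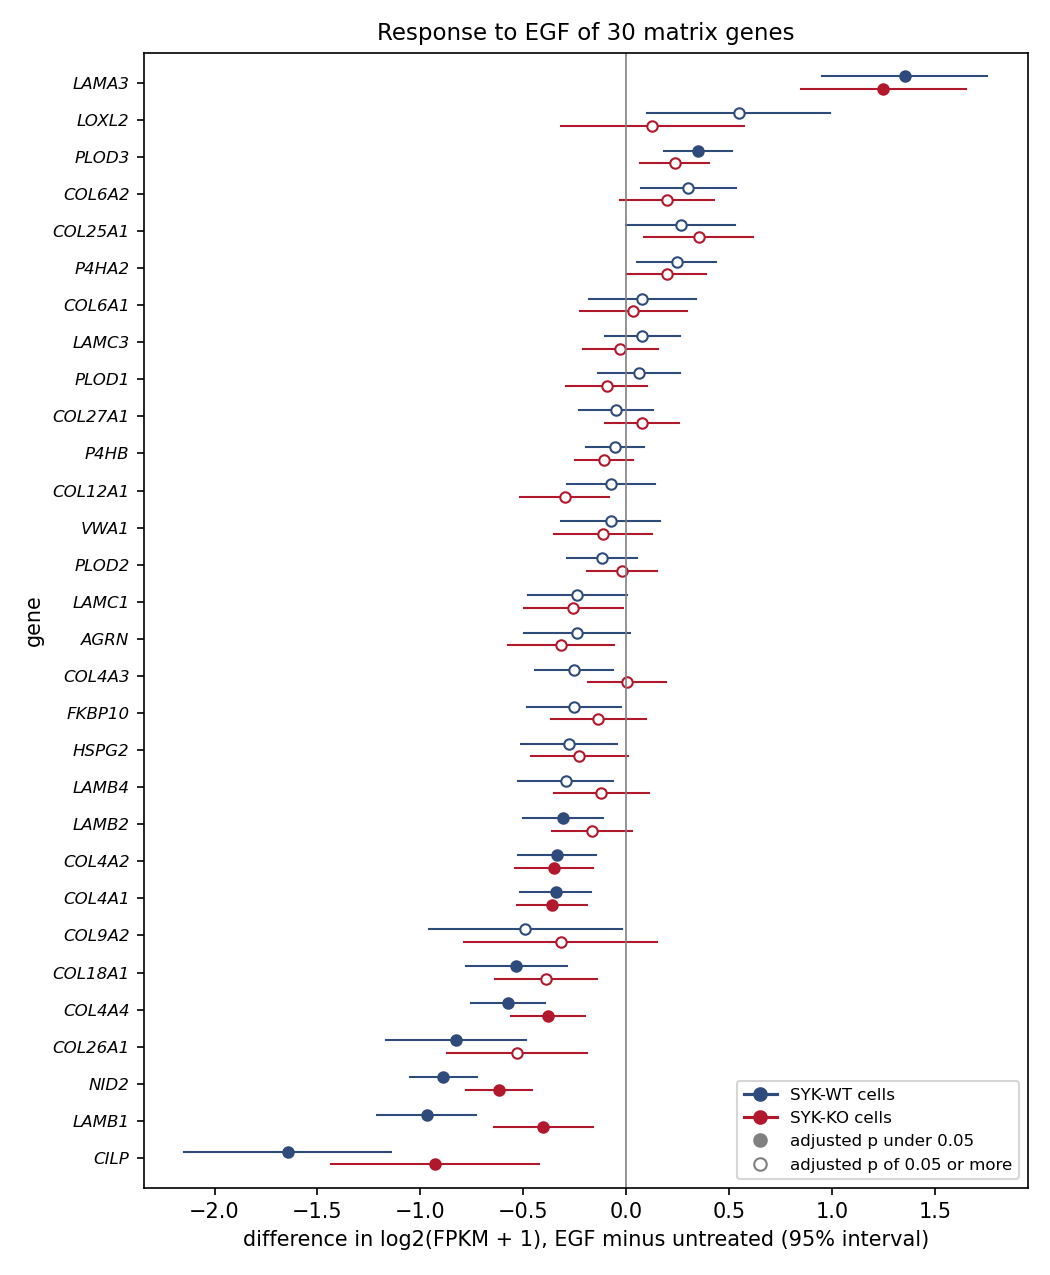
Difference in log2(FPKM + 1) between EGF-treated and untreated libraries for 30 of the 31 tested genes, with SYK-WT cells in blue and SYK-KO cells in red; points are limma estimates from 2 libraries a group, bars their 95% intervals, and filled points passed an adjusted p under 0.05. LAMA3 (1.35 and 1.25) stands to the right, and CILP, LAMB1 and NID2 to the left.

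No gene of the set passed the test of the difference between the EGF responses, which asks whether EGF acted differently in SYK-KO and SYK-WT cells (0 of 31 by limma, where 0.00826% of all tested loci passed). At an unadjusted p under 0.05 there were 4 of the 31, among them LAMB1, NID2 and CILP, and 1070 of 12112 loci. The fall of LAMB1 was smaller in SYK-KO cells by 0.57 on the log2 scale (95% interval 0.23 to 0.91; limma adjusted p = 0.35), that of NID2 by 0.27 (0.041 to 0.50; 0.506) and that of CILP by 0.72 (0.0038 to 1.43; 0.562). For LAMA3 the difference was -0.10, with an interval of -0.67 to 0.47, and for COL4A1 it was -0.017, with an interval of -0.26 to 0.23. Without SYK-WT replicate 2, 1 gene passed, LOXL2.

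In untreated SYK-KO cells the chaperone FKBP10 and the α chain LAMA3 were higher than in SYK-WT cells, and the minor type IV collagen COL4A4 was lower. Without treatment 14 of the 31 genes passed, where 40.5% of all tested loci passed. Higher in SYK-KO were 7 (20.3% of all loci), FKBP10, LAMA3, COL12A1, COL6A2, LAMC3, P4HA2 and PLOD3. Lower were 7 (20.2%), COL4A4, CILP, VWA1, COL4A3, HSPG2, AGRN and LAMC1. With EGF the count was also 14, where 43.6% of all loci passed. Again 7 were higher (21.1%) and 7 lower (22.5%). The comparisons have no library in common, but the fit takes the spread for both from all 8 libraries, so they are not independent. Of the higher genes 6, and of the lower genes 6, were called in both. These counts include LAMC3 and COL4A3, which reached the limit for testing in a single genotype, so their calls are a description only. PLOD3 and CILP were called without EGF and not with it, and LAMB1 was among those called with EGF and not without. Groups did not overlap for 21 of the 31 without EGF, against 70.1% of all loci, and for 23 with EGF, against 78.9%. The median log2 fold change was -0.09 without and -0.03 with EGF, beside -0.0081 and -0.020 over all loci. The stromal list summed to 7.59 to 10.5 FPKM in SYK-WT and 13.8 to 15.1 FPKM in SYK-KO cells, nearly all of it ACTA2, while DCN, LUM, THY1 and COL3A1 were at 0. With EGF it summed to 5.14 to 5.75 and 10.6 to 12.5 FPKM. The mesothelial list, of which 3 of 4 genes reached 1 FPKM, summed without EGF to 16.0 to 23.9 FPKM in SYK-WT and 8.08 to 9.62 FPKM in SYK-KO cells. MSLN was at 5.68 and 7.63 against 0.162 and 0.123 FPKM, and UPK3B at 9.82 and 16.0 against 7.15 and 8.97 FPKM. CALB2 (0.342 and 0.143 against 0.586 and 0.287 FPKM) and WT1 (0.119 and 0.132 against 0.184 and 0.233 FPKM) were not lower. The part of the mesothelial list in these genotype results was not tested.

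FKBP10, a prolyl isomerase of the endoplasmic reticulum that assists collagen folding, had the largest difference of the 31 genes (chromosome 17, 39968962 to 39979469, hg19). Without EGF it held 3.21 and 4.21 FPKM where SYK was intact, and 36.1 and 36.3 FPKM in SYK-KO cells. With EGF the values were 2.999 and 2.859 against 32.4 and 33.3 FPKM. Every SYK-KO library lay above every SYK-WT library, at 9.75 times the mean FPKM without and 11.2 times with EGF. The log2 fold changes were 2.99 ± 0.099 (limma adjusted p = 3.14e-06) and 3.11 ± 0.099 (1.88e-06). SERPINH1, the other chaperone, stayed under the limit for testing.

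**Figure D3:**
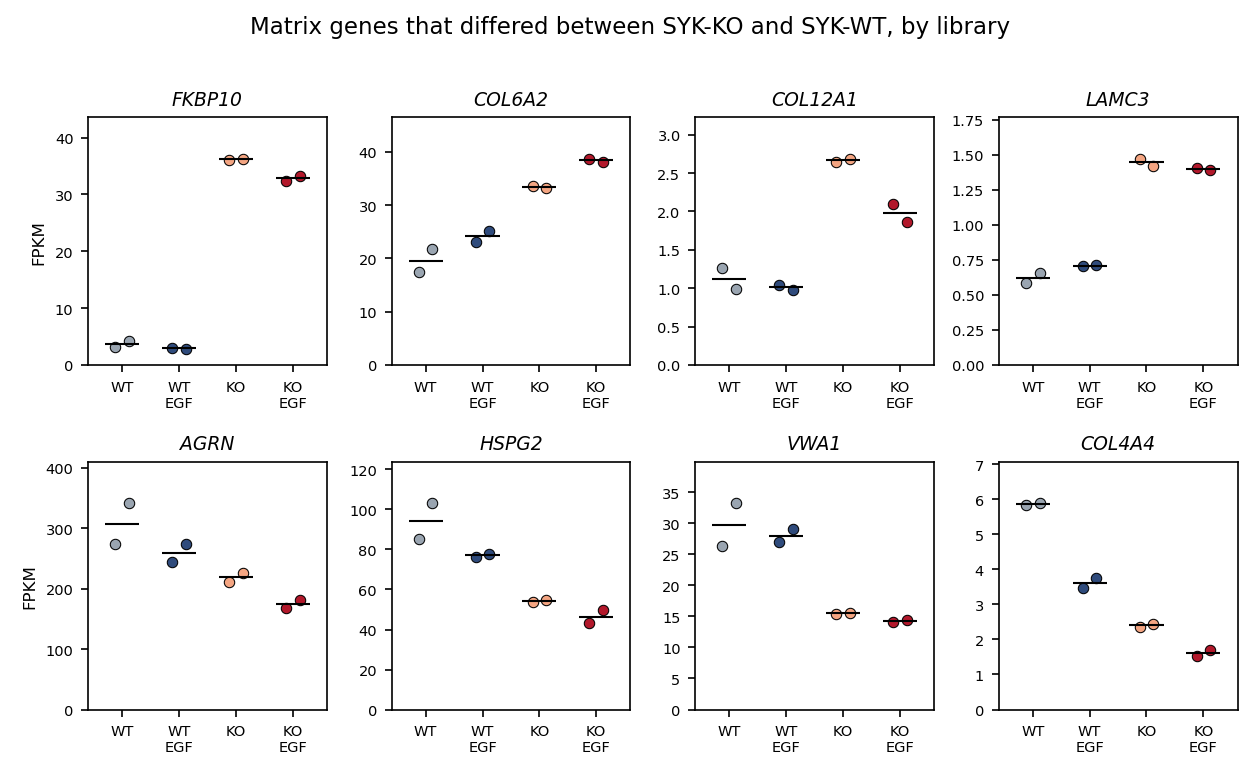
FPKM in each library of 8 genes called between SYK-KO and SYK-WT both with and without EGF, with 1 panel per gene and its own axis from 0; points are libraries and lines the means of 2. FKBP10, COL6A2, COL12A1 and LAMC3 are higher in SYK-KO (FKBP10 36.1 and 36.3 against 3.21 and 4.21 FPKM), and AGRN, HSPG2, VWA1 and COL4A4 are lower. LAMC3 reached the limit for testing in SYK-KO libraries alone, so its calls are a description only.

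Among the laminins, LAMA3 was higher in SYK-KO cells by 1.26 ± 0.17 on the log2 scale without EGF and by 1.16 ± 0.17 with it (limma adjusted p = 0.00126 and 0.00172). Untreated SYK-KO cells held 140 and 156 FPKM, about the level that EGF-treated SYK-WT cells reached (163 and 153 FPKM). The LAMB3 locus was higher in SYK-KO cells without EGF (log2 fold change 0.70 ± 0.10, limma adjusted p = 0.0015) and with it (0.46 ± 0.10, 0.00859).

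LAMC1, whose level was the highest of the 31 genes in untreated SYK-WT cells, was lower in SYK-KO cells. In SYK-KO cells with EGF it averaged 236 FPKM, below LAMA3 with 355 FPKM. It stood at 364 and 409 against 268 and 295 FPKM without EGF and at 322 and 333 against 214 and 259 FPKM with EGF. The log2 fold changes were -0.46 and -0.47, each ± 0.10 (limma adjusted p = 0.0105 and 0.0083). The first call was lost without SYK-KO replicate 1 (0.0783), the second without SYK-WT EGF replicate 2 (0.0555) or SYK-KO EGF replicate 1 (0.0571). LAMC3, a γ chain of low abundance, held 0.588 and 0.654 against 1.47 and 1.42 FPKM, and with EGF 0.707 and 0.711 against 1.41 and 1.39 FPKM. SYK-KO was higher by 0.59 and 0.49, each ± 0.079 (limma adjusted p = 0.00106 and 0.00232), and by 1.103 and 0.890 with a pseudocount of 0.1. LAMC3 reached the 1 FPKM set for testing in SYK-KO libraries alone. The filter thus favoured a higher level in SYK-KO in advance, and these calls are a description only. LAMB1 did not pass without EGF (difference -0.11, 95% interval -0.35 to 0.13) and was higher in SYK-KO cells with EGF by 0.46 ± 0.10 (limma adjusted p = 0.00957). That call was lost without SYK-WT EGF replicate 1 (0.0723) or SYK-KO EGF replicate 2 (0.0656). The LAMA5 locus was lower in SYK-KO cells by log2 fold changes of -0.54 without and -0.25 with EGF, and both passed.

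HSPG2, VWA1 and AGRN were lower in SYK-KO cells with and without EGF. They are 3 of the 5 tested matrix glycoproteins that are neither collagens nor laminins, and CILP was also lower without EGF, where 20.2% of all tested loci were lower without and 22.5% with EGF. HSPG2, the proteoglycan perlecan, stood at 85.0 and 103 against 54.0 and 54.7 FPKM without EGF and at 76.3 and 77.7 against 43.1 and 49.6 FPKM with EGF. Its log2 fold changes were -0.77 and -0.72, each ± 0.10 (limma adjusted p = 0.00102 and 0.00129). VWA1, a small protein of pericellular matrix that binds perlecan, held 26.3 and 33.2 against 15.4 and 15.5 FPKM. With EGF it held 26.99 and 28.99 against 14.1 and 14.3 FPKM. The changes were -0.89 and -0.93 in log2, each ± 0.10 (limma adjusted p = 0.00057 and 0.000465). AGRN, agrin, stood at 273 and 341 against 210 and 226 FPKM without EGF and at 244 and 273 against 168 and 181 FPKM with EGF. Its log2 fold changes were -0.48 and -0.56, each ± 0.11 (limma adjusted p = 0.0111 and 0.00564), and the first was lost without SYK-KO replicate 1 (0.076). For each of HSPG2, VWA1 and AGRN every SYK-KO library was below every SYK-WT library of the same treatment.

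AGRN (955503 to 991499) and VWA1 (1370903 to 1378262, both hg19) are neighbours near the end of chromosome 1. Between them lie 16 tested loci. Of these, 9 were lower and 0 higher in SYK-KO cells by limma in each comparison, where 20.2% and 22.5% of all tested loci were lower. Whether AGRN and VWA1 differ apart from their neighbours was not tested. NID2 did not pass between genotypes (difference -0.13 without and 0.14 with EGF). CILP (5.87 and 8.74 against 2.75 and 3.79 FPKM) was lower in SYK-KO cells without EGF, with a difference of -0.95 ± 0.22 that was lost without SYK-KO replicate 1 (limma adjusted p = 0.0109 and 0.079).

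**Figure D4:**
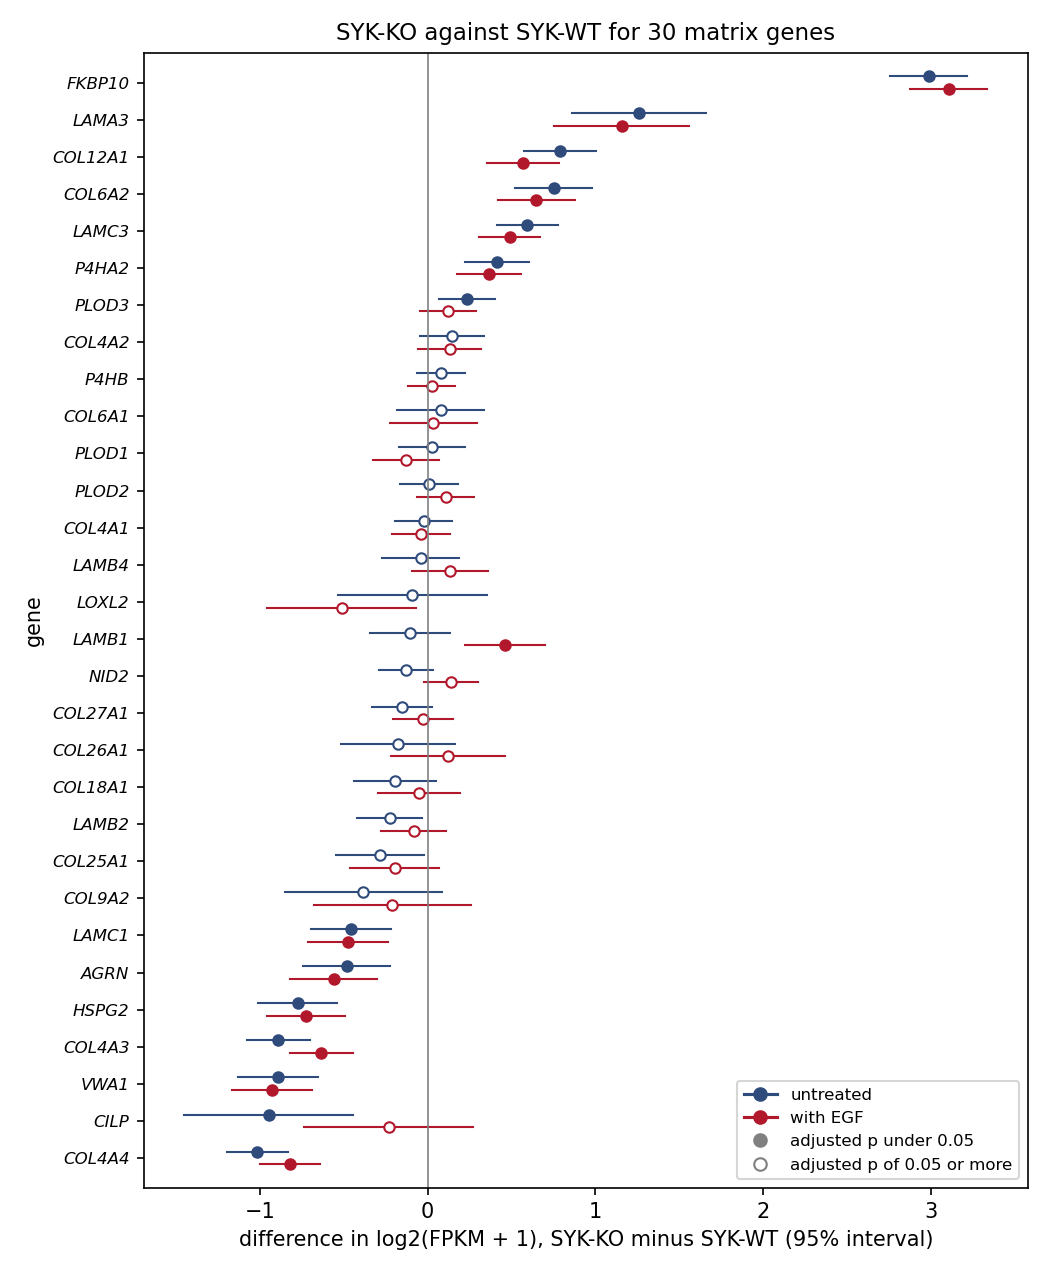
Difference in log2(FPKM + 1) between SYK-KO and SYK-WT libraries for 30 of the 31 tested genes, without EGF in blue and with EGF in red; points are limma estimates from 2 libraries a group, bars their 95% intervals, and filled points passed an adjusted p under 0.05. FKBP10 stands alone at 2.99 and 3.11, LAMA3 follows at 1.26 and 1.16, and COL4A4, VWA1, COL4A3 and HSPG2 lie on the left. COL4A3 and LAMC3 reached the limit for testing in a single genotype and are a description only.

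The type IV collagen chains did not move together between genotypes. COL4A1 and COL4A2 did not pass between genotypes, with differences of -0.024 and 0.15 without EGF (95% intervals -0.20 to 0.15 and -0.044 to 0.33). COL4A4 held 5.84 and 5.89 against 2.35 and 2.45 FPKM in SYK-KO cells, and with EGF 3.47 and 3.75 against 1.52 and 1.70 FPKM. Its differences were -1.01 and -0.82 in log2, each ± 0.078 (limma adjusted p = 9.78e-05 and 0.000238). COL4A3 lies 5 bases from COL4A4 in head-to-head orientation (hg19), so reads at their starts are uncertain without strand. It held 1.45 and 1.55 against 0.319 and 0.382 FPKM without EGF and 1.08 and 1.12 against 0.362 and 0.344 FPKM with EGF. Its log2 fold changes were -0.89 and -0.63, each ± 0.082 (limma adjusted p = 0.00021 and 0.000901), or -1.83 and -1.40 with a pseudocount of 0.1. COL4A3 reached the 1 FPKM set for testing in SYK-WT libraries alone. The filter thus favoured a lower level in SYK-KO in advance, and these calls are a description only. COL4A5, the third chain of that network, was below the limit for testing, and its values were named after they had been seen. It was at 0.0435 and 0.0416 against 0.714 and 0.738 FPKM in SYK-KO cells, and with EGF at 0.0382 and 0.0416 against 0.485 and 0.550 FPKM. Its SYK-KO libraries thus lay above the SYK-WT ones, where those of COL4A3 and COL4A4 lay below.

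COL6A2, a chain of the microfibril-forming collagen VI, was higher in SYK-KO cells. It stood at 17.4 and 21.7 against 33.6 and 33.1 FPKM without EGF and at 23.1 and 25.2 against 38.7 and 38.1 FPKM with EGF. SYK-KO exceeded SYK-WT by 0.75 and 0.65 in log2, each ± 0.10 (limma adjusted p = 0.00107 and 0.00191). Its partner COL6A1, 93069 bases away (hg19), ranged from 11.4 to 14.7 FPKM over all libraries and did not pass in any comparison. COL6A2 relative to COL6A1 was 1.497 to 1.783 in SYK-WT and 2.39 to 2.92 in SYK-KO libraries. COL12A1, which decorates collagen fibrils, held 1.26 and 0.986 against 2.65 and 2.69 FPKM without EGF and 1.04 and 0.980 against 2.09 and 1.87 FPKM with EGF. Its log2 fold changes were 0.79 and 0.57, each ± 0.093 (limma adjusted p = 0.000621 and 0.00251), and the second was 0.90 with a pseudocount of 0.1. The locus of COL17A1, the hemidesmosomal collagen, was higher in SYK-KO cells by 1.23 without and 1.45 with EGF (16.0 and 17.8 against 38.4 and 43.7 FPKM without it). EGF lowered it by log2 fold changes of -0.69 in SYK-WT and -0.47 in SYK-KO cells, and all 4 differences passed.

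Of the hydroxylases, P4HA2, a catalytic subunit of prolyl hydroxylase, was higher in SYK-KO cells. It was at 18.2 and 19.2 against 25.2 and 25.3 FPKM without EGF and at 21.0 and 23.8 against 27.5 and 30.7 FPKM with EGF. The differences were 0.42 and 0.37 in log2, each ± 0.083 (limma adjusted p = 0.00617 and 0.0097), and the second was lost without SYK-WT EGF replicate 1 (0.0759) or SYK-KO EGF replicate 2 (0.0686). PLOD3 was higher without EGF by 0.23 ± 0.072 (limma adjusted p = 0.0341), a call lost under 9 of the alternatives. The genes that passed in none of the 5 comparisons were 9 of the 31, namely COL25A1, COL27A1, COL6A1, COL9A2, LAMB4, LOXL2, P4HB, PLOD1 and PLOD2. Over the 8 libraries P4HB lay at 172 to 193 FPKM, PLOD1 at 64.6 to 76.8 FPKM, COL25A1 at 9.87 to 16.6 FPKM, COL9A2 at 1.91 to 5.35 FPKM, LAMB4 at 0.648 to 1.24 FPKM and PLOD2 at 12.2 to 14.0 FPKM. LOXL2 held 19.7 and 20.3 FPKM in untreated and 20.5 and 23.3 FPKM in treated SYK-KO cells, and its difference from SYK-WT with EGF, -0.51, did not pass (limma adjusted p = 0.0616).

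The authors' deposited table gives q-values for 3 of the comparisons. For 11 of the 31 genes the authors' deposited table had q under 0.05 for EGF in SYK-WT cells (15.2% of all tested loci), and these included 8 of the 12 called by limma, without COL4A1, COL4A2, LAMB2 and PLOD3. For SYK-KO against SYK-WT, 13 of the 31 had such a q in the authors' deposited table without EGF (21.5% of loci) and 13 with EGF (24%), with 12 of the 14 limma calls each time. COL4A3 was missing in both, PLOD3 in the first and P4HA2 in the second. COL9A2, LAMB4 and LOXL2 had q under 0.05 for EGF in SYK-WT cells in the authors' deposited table and did not pass in limma. The same held between genotypes for COL9A2 without EGF (authors' deposited q = 0.0396) and LOXL2 with EGF (authors' deposited q = 0.00665). Among untested loci NID1 had q under 0.05 in the authors' deposited table for both genotype comparisons, as did COL4A5. LAMA2, also untested, had q under 0.05 there for EGF in SYK-WT cells. NID1 was at 0.187 and 0.323 FPKM without EGF, against 0.534 and 0.626 FPKM in SYK-KO cells.

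Genes of the same pathways outside the set were read from 3 lists. Of 24 other genes of collagen biosynthesis 16 were tested. In SYK-KO cells 5 were higher and 3 lower without EGF, and 5 higher and 2 lower with EGF, whereas EGF lowered 2 and raised 0 in either genotype by limma. Over all tested loci 20.3% were higher and 20.2% lower in SYK-KO cells without EGF, and 21.1% and 22.5% with EGF. EGF lowered 12.1% of all loci in SYK-WT and 5.13% in SYK-KO cells, and raised 14.7% and 6.67%. ADAMTS14, a protease that trims procollagen, held 0.339 and 0.495 against 1.83 and 1.77 FPKM in SYK-KO cells (log2 fold change 0.98 ± 0.094, limma adjusted p = 0.000245). P3H2, a prolyl hydroxylase that acts on type IV collagen, held 0.663 and 0.739 against 2.43 and 2.75 FPKM (1.07 ± 0.097, 0.000189). It fell with EGF in SYK-WT cells by 0.39 and in SYK-KO cells by 0.55. ADAMTS14 and P3H2 reached the 1 FPKM set for testing in SYK-KO libraries alone, so the filter favoured higher levels in SYK-KO in advance. MIA3, which loads procollagen into transport carriers, was lower in SYK-KO cells, with a difference of -0.60 ± 0.076 (limma adjusted p = 0.000877).

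Of 28 other matrix genes 11 were tested. EGF raised 2 and lowered 6 in SYK-WT cells and raised 2 and lowered 4 in SYK-KO cells, and SYK-KO against SYK-WT gave 2 higher and 2 lower without EGF and 4 higher and 1 lower with it. The shares over all loci were 14.7% raised and 12.1% lowered by EGF where SYK was intact, 6.67% and 5.13% where it was knocked out, and those given for the genotypes above. FN1, fibronectin, held 7.01 and 8.42 against 1.37 and 1.48 FPKM in SYK-KO cells, a difference of -1.84 ± 0.10 (limma adjusted p = 2.45e-05). NTN4, a laminin-related netrin of basement membranes, fell with EGF in SYK-WT cells from 20.8 and 22.2 to 10.0 and 10.1 FPKM (log2 fold change -1.03 ± 0.093, limma adjusted p = 0.000419). FBLN1, which binds basement membrane proteins, was higher in SYK-KO cells by 0.64 ± 0.11 (limma adjusted p = 0.00288). Of 16 genes of the TGF-β axis, a known regulator of matrix genes, 13 were tested. EGF lowered 4 in SYK-WT and 2 in SYK-KO cells and raised 0 by limma, and SYK-KO cells had 4 higher and 2 lower without EGF and 6 higher and 1 lower with it. The 6 called without EGF stand beside 40.5% of all loci, the 7 with EGF beside 43.6%, and the genes lowered by EGF beside 12.1% and 5.13%. The 0 raised by EGF stand beside 14.7% of all loci in SYK-WT and 6.67% in SYK-KO cells. SMAD6, an inhibitory SMAD, was higher in SYK-KO cells by 0.64 ± 0.15 (limma adjusted p = 0.0109). SMAD3, a transducer, was lower, with a difference of -0.50 ± 0.069 (limma adjusted p = 0.0013). TGFBR3, a co-receptor, fell with EGF in SYK-WT cells by 0.72 ± 0.083 (limma adjusted p = 0.00104).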

How the data were processed

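Total RNA of 8 OVISE libraries was sequenced as paired ends, and groups and replicate numbers come from the sample titles. The authors deposited FPKM per locus and library, made with TopHat, Cufflinks and Cuffdiff 2.2.1.3 on hg19, per the submitters' processing notes. The q-values were also deposited by the authors and were copied. Settings were, like scaling and strand, not given in the sources used here. The members and lists were chosen with earlier results of these data known.

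Symbols were found for 27541 of 27757 loci (99.2%). Loci that reached 1 FPKM in 2 or more libraries (12112) were fitted as log2(FPKM + 1) with limma 3.58.1 (R 4.3.3) with a mean-variance trend, 4 groups sharing the spread (4 residual degrees of freedom, prior 3.87), and two-sided p-values were adjusted by Benjamini-Hochberg over all 12112 loci of a contrast, with a threshold of 0.05. The fit was also run on simulated data with independent noise for each library. That simulation held no effect of clone, culture or replicate, so it does not bear on those limits. Depth was estimated from the steps between values of up to 0.5 FPKM and assumes scaling by the fragments of each library itself. The rule for named genes takes every tested member that passed in at least 1 contrast (22), of which some results are not reported here, and up to 3 genes of each further list with the smallest adjusted p. COL4A5, NID1, SERPINH1, COL1A1, LOXL2 and other members outside that rule were named after their values had been seen. Sequences are RefSeq's, on GRCh38.p14, while gene coordinates are the table's, in hg19. Tables and plots used python 3.11.15, pandas 2.3.3 and matplotlib 3.10.9. Alternatives were pseudocounts, filters, equalised library medians, library weights, only the compared groups, the replicate block and each library left out.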

Additional observations from a re-analysis of the deposited data

How the results depend on the processing

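Of the 48 calls on single genes of the set, 31 were kept under every alternative run, 17 were lost under at least 1, and no direction reversed among them. The count for EGF in SYK-KO cells moved by over 1.5 times in many settings: 8 became 16 when only the compared groups were fitted, 15 under library quality weights, 17 without either SYK-WT library and 3 without any single SYK-KO or SYK-KO EGF library. For EGF in SYK-WT cells 12 became 19 when SYK-WT replicate 1 was left out and 7 when SYK-WT EGF replicate 1 was. For SYK-KO against SYK-WT without EGF the count of 14 became 22 with no filter on low values, the 8 additional ones being members under the limit for testing. Leaving out a library gave 7 to 19 genes for EGF in SYK-WT cells, 3 to 17 for EGF in SYK-KO cells, 10 to 18 and 12 to 15 for SYK-KO against SYK-WT without and with EGF, and 0 to 1 for the difference of the responses. A lone library left in a group is assumed to vary like the other groups. The cause of these changes was not tested. Correlations of same-numbered deviations ran from -0.38 to 0.27. They were positive (0.16 to 0.27) among SYK-WT, SYK-KO and SYK-KO EGF. Between SYK-WT EGF and each of those groups they were negative (-0.38 to -0.16). Whether replicate numbers pair the libraries was thus not resolved, and the main fit did not use them. With a replicate block the counts were 18, 11, 16, 16 and 0 in the order above. With the numbers of SYK-WT EGF crossed, a choice made after the data were seen, they were 13, 8, 14, 15 and 0. The fit with only the compared groups was not run for the difference of the responses. The estimated depth of 22800000 to 26900000 fragments limits the loci under 0.5 FPKM, where a value rests on few fragments.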
